A study of Mus musculus with 768 samples.

Results

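The enzymes that hydroxylate, fold, trim and cross-link fibrillar collagen were described in single fibroblasts of mouse mammary tumors. The members were taken by gene symbol and were the 5 lysyl oxidases Lox, Loxl1, Loxl2, Loxl3 and Loxl4, the prolyl 4-hydroxylase subunit P4ha1, the lysyl hydroxylase Plod2, the collagen chaperone Serpinh1, the propeptide proteinase Bmp1 and its enhancer Pcolce. All 10 were found among the 24490 endogenous genes of the deposited tables. Each was described alone and against Col1a1 and Col3a1, which encode chains of type I and type III collagen, in the same cell. The cells came from 2 mammary tumors of the mouse strain FVB/N-Tg(MMTVPyVT)634Mul/J at 14 weeks of age, in which the MMTV promoter drives polyoma middle T in the mammary epithelium. All cells thus came from transgenic tumors, the labels name no treatment, and no tumor-free tissue was analysed here. Live cells negative for EpCAM, CD45, CD31 and NG2 had been sorted 1 cell to a well, in equal numbers of wells per tumor, and sequenced by Smart-seq2, a full-length method without molecular identifiers. Each tumor was also 1 plate, so tumor and plate cannot be told apart. Replication is over the tumors (n = 2), not over cells.

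Procollagen chains are hydroxylated on prolines and lysines in the endoplasmic reticulum, where the chaperone Hsp47, the product of Serpinh1, holds the folded triple helix until it is exported. Outside the cell Bmp1 cuts off the C-propeptide, a step that Pcolce enhances, and the copper-dependent lysyl oxidases then oxidize lysines of collagen and elastin so that the fibers become covalently cross-linked. Lox and Loxl1 are the short members of the oxidase family, whereas Loxl2, Loxl3 and Loxl4 carry scavenger receptor domains. On RefSeq's GRCm38.p6 Loxl1 (chr9:58287723-58313212) and Plod2 (chr9:92539636-92608428) lie on chromosome 9, and Loxl2 (chr14:69608692-69695834) and Bmp1 (chr14:70474555-70520716) on chromosome 14, in each case apart from each other. Loxl3 lies at chr6:83034205-83052566, Loxl4 at chr19:42592279-42612806, P4ha1 at chr10:59323197-59373304 and Pcolce at chr5:137605105-137611522. Cross-linked collagen is known for stiffening the stroma of breast tumors.

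Of 768 wells, 727 held at least 10000 endogenous reads, 373 in tumor 1 and 354 in tumor 2, with a median of 219264 and 198180 reads. Clusters made without the members and the other listed genes gave 497 vCAF-like, 140 mCAF-like, 44 cCAF-like and 40 dCAF-like wells, after the vascular, matrix, cycling and developmental CAFs (cancer-associated fibroblasts) of the study, and 6 wells remained unnamed. The dCAF-like wells were split 10 to 30 between the tumors. Median depth was 194998 and 190515 reads in vCAF-like wells and 289809 and 238373 in mCAF-like wells, and the median share of ERCC spike-in reads was 15.0% and 12.8% against 5.81% and 5.98%. Of the genes of the gated proteins, Pecam1 (CD31) was read in 0 wells of tumor 1 and 2 of tumor 2, and Ptprc (CD45) in 0 and 1, whereas Cspg4 (NG2) was read in 302 and 299 wells with a median of 15.8 and 23.01 RPKM. Epcam was read in 56 wells, in 10 and 19 vCAF-like, 7 and 11 mCAF-like and 2 and 7 dCAF-like wells of the 2 tumors, and the summed RPKM of 8 epithelial markers had a median of 203 and 44.8 in dCAF-like wells and of 0 in every other named class.

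Levels are given as the mean of log2(RPKM + 1) over wells, which is set per length and can be compared between genes. Over all wells the members spanned a wide range. Pcolce was highest at 8.34 ± 0.62 (SD, n = 2), followed by Serpinh1 at 6.47 ± 0.34, Bmp1 at 5.80 ± 0.09, Loxl3 at 4.09 ± 0.04, P4ha1 at 3.82 ± 0.21, Loxl1 at 3.43 ± 0.05, Loxl2 at 3.05 ± 0.35, Lox at 2.29 ± 0.12, Plod2 at 2.10 ± 0.47 and Loxl4 at 0.12 ± 0.07. Col3a1 stood above all of them at 9.40 ± 0.49 and Col1a1 beside Pcolce at 8.02 ± 0.30. In this order the ranges of neighbours overlapped between tumors for Pcolce and Col1a1 and for Lox and Plod2 and for no other pair. The trimming and folding genes were read in most cells, whereas Lox was unevenly held. The tenth of wells with most Lox carried 70.2% and 68.5% of all Lox RPKM in the 2 tumors, against 22.9% and 25.5% for Serpinh1. Loxl1 (51.4% and 54.2%) was about as concentrated as Col1a1 (49.4% and 53.1%), and Loxl3 (39.7% and 42.7%) was near P4ha1 (36.7% and 44.7%). A median of 9 of the 10 members was read in an mCAF-like well in both tumors and of 6 in a vCAF-like well. Genes of all kinds differed in the same direction, with a median of 5713 and 5566 read in mCAF-like and 3971 and 4135 in vCAF-like wells. The members' medians were also 9 and 6 in the wells with at least 50000 reads, each thinned to 50000. These were 73 of 75 and 65 of 65 mCAF-like and 247 of 262 and 217 of 235 vCAF-like wells. RPKM was scaled by the total of endogenous and spike-in reads, so a well rich in spike-in reads has lower values.

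**Figure D1:**
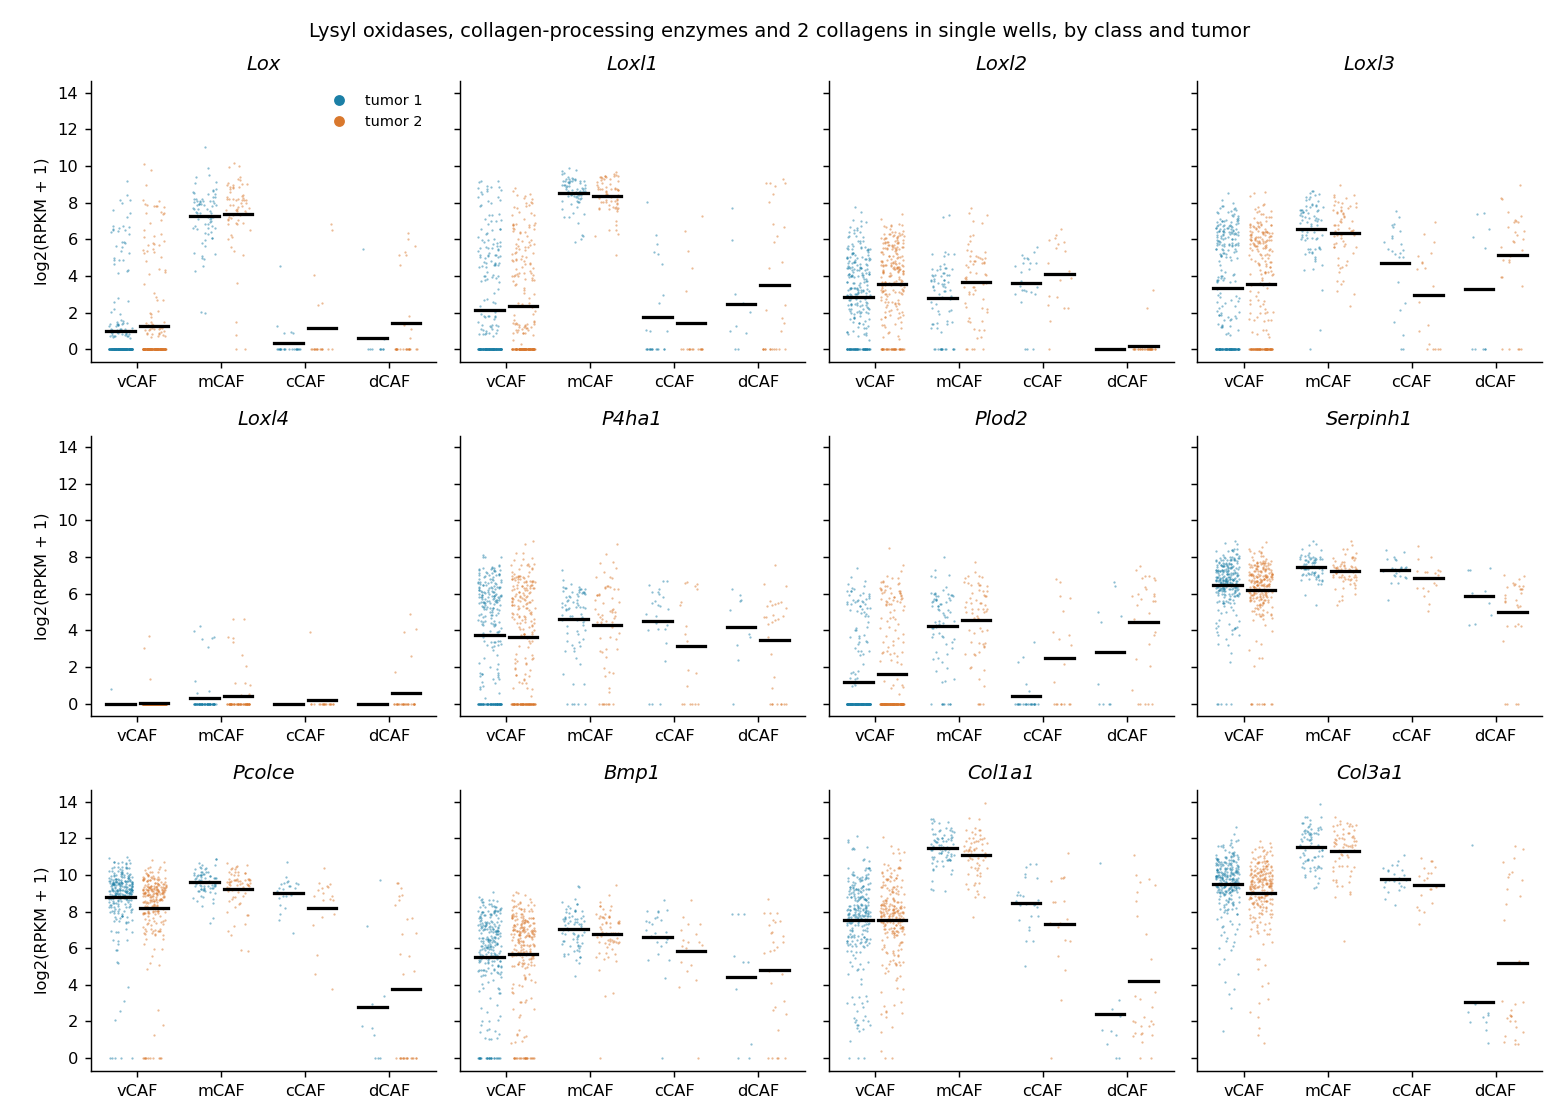
Level of each member and of Col1a1 and Col3a1 in single wells, as log2(RPKM + 1), by class and tumor; each point is a well and each black line the mean over the wells of 1 tumor. The lines for Lox lie at 7.25 and 7.37 in mCAF-like wells and at 1.01 and 1.25 in vCAF-like wells, and those for Pcolce drop to 2.79 and 3.76 in dCAF-like wells.

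Lox, the founding lysyl oxidase, was read in nearly all mCAF-like wells and in a minority of every other class. In mCAF-like wells it was read in 75 of 75 and 63 of 65 wells, with a median of 187 and 232 RPKM and a highest value of 2089 and 1139 RPKM. In vCAF-like wells it was read in 31.3% (exact binomial 95% interval 25.7 to 37.3%) and 31.1% (25.2 to 37.4%), with a median of 0 RPKM. Thinning to equal depth gave 19.8% and 24.4% of 247 and 217 vCAF-like wells. The other vCAF-like wells had too few reads to be thinned, so the thinned shares cover a smaller set of wells. Intervals here cover counting error over wells only, since reads without molecular identifiers are not independent molecules. The mean level was 7.31 ± 0.08 in mCAF-like wells and 1.13 ± 0.17, 1.02 ± 0.59 and 0.76 ± 0.59 in vCAF-like, dCAF-like and cCAF-like wells, and the last 3 overlapped between tumors. The highest vCAF-like well of tumor 2 held 1121 RPKM of Lox, within the range of mCAF-like wells. It is a single well, no doublet caller was run, and its class under other clusterings was not looked up.

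Loxl1, the oxidase most tied to elastic fibers, was also highest in mCAF-like wells, with a less sharp edge. It was read in every mCAF-like well, with a lowest value of 56.1 and 34.3 RPKM and a median of 392 and 360 RPKM. In vCAF-like wells it was read in 45.04% (38.9 to 51.3%) and 52.8% (46.2 to 59.3%). The mean level was 8.44 ± 0.12 in mCAF-like, 2.98 ± 0.75 in dCAF-like, 2.24 ± 0.14 in vCAF-like and 1.58 ± 0.24 in cCAF-like wells, with no overlap between neighbours in this order. The place of the dCAF-like wells was less firm than this: their summed counts of Loxl1 lay below the vCAF-like ones in tumor 1 and above them in tumor 2, and below them when the clustering kept the listed genes, as given with the tests. Nor was the place of the cCAF-like wells firm, since with graph clustering the fitted change of Loxl1 against vCAF-like libraries turned from -1.15 to 0.45, and neither passed (edgeR adjusted p = 0.602 and 0.890, with a range of 0.454 to 0.890 over 10 settings). Over all wells, which includes the class difference, 81.1% and 79.9% of those with a Lox read also held Loxl1, against 37.8% and 45% of those without one. Within vCAF-like wells these shares were 67.07% and 67.1% against 35% and 46.3%, and within mCAF-like wells, all of which held Loxl1, the rho of Lox with Loxl1 was 0.10 and -0.04.

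The scavenger receptor oxidases differed from each other. Loxl3 was read in 74 of 75 and 65 of 65 mCAF-like wells with a level of 6.47 ± 0.15, and in 64.5% and 68.5% of vCAF-like wells with a level of 3.44 ± 0.15. Its levels of 4.21 ± 1.29 in dCAF-like and 3.83 ± 1.23 in cCAF-like wells overlapped with the vCAF-like one. Loxl2 had no mCAF-like peak, with 3.85 ± 0.36 in cCAF-like, 3.24 ± 0.61 in mCAF-like and 3.21 ± 0.52 in vCAF-like wells. Neighbours in this order overlapped between tumors, while the cCAF-like values of 3.60 and 4.11 lay just above the vCAF-like ones of 2.84 and 3.58. In dCAF-like wells Loxl2 was nearly absent from the reads, in 0 of 10 wells (exact interval 0 to 30.8%) and 2 of 30 wells (0.818 to 22.1%). Loxl4 was rare everywhere and was read in 10 wells of tumor 1 and 21 of tumor 2. Of these, 9 and 12 were mCAF-like, and all of those also held Lox and Loxl1 reads. A further 5 were dCAF-like wells of tumor 2, of which 1 held a Lox read and 5 a Loxl1 read. The mean RPKM of Loxl4 was under 1, and it was left out of the test across genes. Reads of Loxl3 and Htra2, which lie on opposite strands and share 535 exonic bases, cannot be told apart there because the protocol keeps no strand. Htra2 had 2858 reads in these wells against 23449 and 18634 for Loxl3.

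The hydroxylases were divided as well. P4ha1, the catalytic subunit of the main prolyl 4-hydroxylase, was spread over all classes, with 4.46 ± 0.20 in mCAF-like, 3.83 ± 1.00 in cCAF-like, 3.82 ± 0.48 in dCAF-like and 3.68 ± 0.07 in vCAF-like wells, and each overlapped its neighbour. Plod2, which hydroxylates the telopeptide lysines that lysyl oxidases later use, was read in 89.3% and 93.8% of mCAF-like wells but in 26.3% and 34.5% of vCAF-like wells. Its level was 4.40 ± 0.24 in mCAF-like and 3.64 ± 1.14 in dCAF-like wells, which overlapped, and 1.46 ± 1.496 in cCAF-like and 1.40 ± 0.33 in vCAF-like wells. The cCAF-like value was set by tumor 2, at 2.51, against 0.40 in tumor 1. The median of Plod2 was 11.2 and 47.2 RPKM in dCAF-like and 25.9 and 31.8 RPKM in mCAF-like wells, against 0 RPKM in vCAF-like wells of both tumors.

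Serpinh1, whose product Hsp47 binds collagen triple helices, was evenly held. It was read in every mCAF-like and cCAF-like well and in 98.1% and 95.7% of vCAF-like wells, with medians of 177 and 160, 159 and 130, and 105 and 92.4 RPKM. The class means ran from 7.34 ± 0.18 in mCAF-like over 7.07 ± 0.33 in cCAF-like and 6.34 ± 0.21 in vCAF-like to 5.44 ± 0.65 in dCAF-like wells, and the first 2 overlapped between tumors. With its client Col3a1 it had a Spearman's rho over wells of 0.33 and 0.37 in the 2 tumors, of 0.15 and 0.19 within vCAF-like and of 0.19 and 0.24 within mCAF-like wells, a loose relation. To set a chaperone gene beside a client gene, the 250 bases upstream of both are shown here from RefSeq (GRCm38.p6, the assembly of mm10). The Serpinh1 window is chr7:99353240-99353489 on the minus strand, next to the gene at chr7:99345375-99353239, and the Col3a1 window is chr1:45311288-45311537 on the plus strand, next to the gene at chr1:45311538-45349706. Both are written 5′ to 3′ along the gene, with matches to a searched motif in capitals.
Serpinh1: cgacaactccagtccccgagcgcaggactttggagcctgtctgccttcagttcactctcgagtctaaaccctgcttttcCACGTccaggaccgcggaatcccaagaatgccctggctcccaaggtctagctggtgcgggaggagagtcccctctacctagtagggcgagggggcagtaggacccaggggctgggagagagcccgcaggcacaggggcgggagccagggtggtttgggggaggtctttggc
Col3a1: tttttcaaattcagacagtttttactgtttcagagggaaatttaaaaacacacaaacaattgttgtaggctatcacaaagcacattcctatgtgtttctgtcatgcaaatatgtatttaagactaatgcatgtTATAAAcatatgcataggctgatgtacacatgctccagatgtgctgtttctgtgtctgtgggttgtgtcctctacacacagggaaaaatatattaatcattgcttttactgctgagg
The 3 motifs searched on both strands were ACGTG, the core of the hypoxia response element, CCAAT and TATAAA, which share no overlapping match in these windows. The Serpinh1 window held ACGTG once on the opposite strand, starting at -171, and neither of the others. The Col3a1 window held TATAAA once, starting at -117, and neither of the others. Of 27025 RefSeq promoter windows of this length, 16.6% held ACGTG, 34.5% CCAAT and 12.97% TATAAA, so these letters are found in many promoters, and a match describes the window only.

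Pcolce and Bmp1, which act on the procollagen C-propeptide, were read in most cells of 3 classes. Pcolce had a median of 779 and 747 RPKM in mCAF-like, 605 and 454 in cCAF-like and 567 and 482 in vCAF-like wells. In dCAF-like wells it was read in 7 of 10 and 15 of 30 wells with a median of 2.27 and 11.5 RPKM, and the mean level was 3.28 ± 0.68 against 8.49 ± 0.42 in vCAF-like wells. Bmp1 was less uneven, with 6.91 ± 0.21 in mCAF-like, 6.25 ± 0.55 in cCAF-like, 5.60 ± 0.09 in vCAF-like and 4.62 ± 0.28 in dCAF-like wells. It was still read in 8 of 10 and 25 of 30 dCAF-like wells.

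The differences between classes were tested on counts summed per tumor and class, with edgeR over 11715 genes and Benjamini-Hochberg adjustment over all of them. Of the members, 9 were tested. The 3 comparisons share the vCAF-like libraries, so they are not independent of each other. Normalised values in CPM (reads of the gene per 1e+06 library reads) below are not set per length and are compared within a gene only. The p-values rest on 2 tumors and 4 residual degrees of freedom.

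Between mCAF-like and vCAF-like cells both reference collagens rose, and Lox, Loxl1 and Loxl3 had the largest differences among the oxidases without passing the threshold of 0.05. Col1a1 was at 20386 and 16170 CPM in mCAF-like against 2535 and 2136 CPM in vCAF-like libraries, a log2 fold change of 2.97 ± 0.39 (SE, edgeR adjusted p = 0.00994). Col3a1 was at 25575 and 22518 against 7158 and 5370 CPM, or 1.94 ± 0.39 (edgeR adjusted p = 0.0390, and 0.0702 with tumor as a block, where it no longer passed, and 0.380 with the listed genes kept in the clustering). Across all genes 2.63% were called higher and 2.36% lower. Of the 9 members 0 were called in either direction, and 4 had an unadjusted p under 0.05 beside 1864 of all genes. DESeq2 called 3 of them, Lox, Loxl1 and Loxl3. The members' median log2 fold change was 0.69 with 8 of 9 above 0, against a median of -0.03 over all genes. Scaling by the spike-in reads instead, which differ between the classes, moved the median of all genes to 0.84 and that of the members to 1.57, and Serpinh1 and Bmp1 then passed as well.

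Lox was at 1326 and 1632 CPM in mCAF-like and 73.5 and 136 CPM in vCAF-like libraries. Both mCAF-like values lay far above both vCAF-like values, and the log2 fold change was 3.82 ± 0.83 (edgeR adjusted p = 0.0516). With tumor as a block the change was 3.94 and passed (edgeR adjusted p = 0.0224), and over 11 alternative settings Lox passed in 9, with adjusted p from 9.18e-06 to 0.0984. Loxl1 was at 1748 and 1580 against 160 and 129 CPM, or 3.52 ± 0.78 (edgeR adjusted p = 0.0550), and passed in 10 of 11 settings, from 1.39e-05 to 0.0975. Loxl3 was at 639 and 563 against 190 and 170 CPM, or 1.74 ± 0.43 (edgeR adjusted p = 0.0771), and passed in 6 of 11. None of the 3 passed when any 1 of the 4 mCAF-like and vCAF-like libraries was left out, and neither did Col1a1 (edgeR adjusted p from 0.0540 to 0.104) or Col3a1 (0.152 to 0.279). The direction of Lox, Loxl1 and Loxl3 was the same in both tumors and in all 15 settings. The settings that all 3 passed include the clustering with the listed genes kept. There 22 listed genes, 2 members among them, helped to form the classes, so it is not an independent check.

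The folding, hydroxylating and trimming members differed less between these classes. Serpinh1 was at 548 and 473 against 342 and 290 CPM (0.69 ± 0.22, edgeR adjusted p = 0.162), Pcolce at 1631 and 1454 against 1160 and 892 CPM (0.59 ± 0.31, edgeR adjusted p = 0.471) and Bmp1 at 734 and 685 against 481 and 484 CPM (0.56 ± 0.25, edgeR adjusted p = 0.347). None of them passed the test. Plod2 was at 144 and 193 against 36.6 and 59.7 CPM, with a wide error (1.81 ± 1.00, edgeR adjusted p = 0.508). P4ha1 (0.15 ± 0.31) and Loxl2 (-0.13 ± 0.64) were near 0, with edgeR adjusted p of 0.955 and 0.988.

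**Figure D2:**
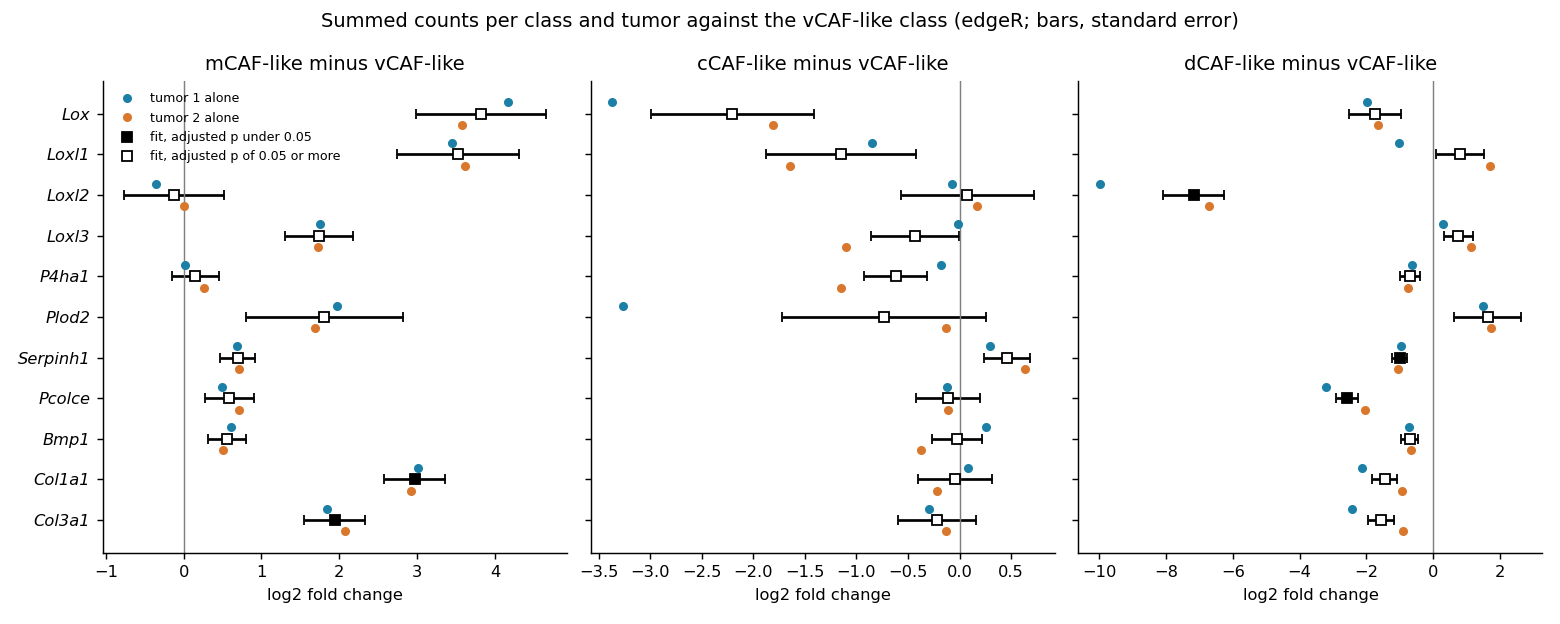
Log2 fold change of each member and of both collagens against vCAF-like libraries, for mCAF-like, cCAF-like and dCAF-like libraries; bars are the standard error of the edgeR fit, small points the ratios within each tumor, and filled squares mark an adjusted p under 0.05. In dCAF-like libraries Loxl2 (-7.17), Pcolce (-2.59) and Serpinh1 (-1.01) are filled, while in mCAF-like libraries only Col1a1 and Col3a1 are.

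Between cCAF-like and vCAF-like cells no member was called, where 0.341% of all genes were called higher and 0.0939% lower. The median over the 9 members was -0.43 with 2 above 0, against -0.05 over all genes, and 1 member had an unadjusted p under 0.05 beside 1508 of all genes. That member was Lox, at 7.0 and 38.9 CPM in cCAF-like against 73.5 and 136 CPM in vCAF-like libraries (-2.20 ± 0.79, edgeR adjusted p = 0.298), and DESeq2 called it (DESeq2 adjusted p = 0.0496, with a range of 0.0496 to 0.711 over 10 settings). The change of Lox ran from -2.45 to -0.99 over these settings and from -3.91 to -1.44 with a library left out. With spike-in scaling the median of the members turned to 0.30, where that of all genes was 0.68. Serpinh1 was the highest of the others at 418 and 450 against 342 and 290 CPM (0.46 ± 0.22, edgeR adjusted p = 0.465). The collagens were close to even, with 2690 and 1841 CPM of Col1a1 (-0.04 ± 0.36) and 5827 and 4914 CPM of Col3a1 (-0.22 ± 0.38). Plod2 differed between tumors, at 3.72 and 54.7 CPM.

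Between dCAF-like and vCAF-like cells 3 members fell, Loxl2, Pcolce and Serpinh1, in a comparison in which 3.08% of all genes were called higher and 5.19% lower. The median over the 9 members was -0.71 with 3 above 0, against -0.07 over all genes, and with spike-in scaling these medians were -0.03 and 0.62. Loxl2 was at 0 and 1.43 CPM in dCAF-like against 101 and 161 CPM in vCAF-like libraries, that is, at 0 and 9 reads in all. The fitted change of -7.17 ± 0.92 (edgeR adjusted p = 0.0063) depends on the prior count because the library of tumor 1 held no read. It ran from -14.43 to -6.53 with a library left out and from -14.18 to -6.44 in 11 other settings. The call held in all 15 alternative settings, with adjusted p of edgeR or DESeq2 from 4.27e-16 to 0.0135 in those 11. Pcolce was at 126 and 214 against 1160 and 892 CPM (-2.59 ± 0.33, edgeR adjusted p = 0.00615), and the call also held in all 15, with log2 changes from -3.04 to -2.28 with a library left out and from -5.38, with the listed genes kept in the clustering, to -1.85, with spike-in scaling, in the others. Serpinh1 was at 176 and 138 against 342 and 290 CPM (-1.01 ± 0.22, edgeR adjusted p = 0.0408). Its call was lost without either vCAF-like library, with edgeR adjusted p up to 0.252, without any 1 of the mCAF-like or cCAF-like libraries, which share the estimate of the spread, and under 5 of 11 other settings.

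The remaining members did not pass in this fit. Bmp1 was at 289 and 303 CPM against 481 and 484 CPM (-0.71 ± 0.25, edgeR adjusted p = 0.147), P4ha1 at 131 and 137 against 203 and 233 CPM (-0.70 ± 0.31, edgeR adjusted p = 0.245) and Lox at 18.5 and 42.95 CPM (-1.75 ± 0.78, edgeR adjusted p = 0.249). With the listed genes kept in the clustering Lox passed, at -2.91 (edgeR adjusted p = 0.0386, with a range of 0.0386 to 0.699 over 11 settings). In that setting, here and below, 22 listed genes, 2 members among them, entered the clustering. Listed genes can then help to define the classes they are tested in, so it is not an independent check. Above the vCAF-like values were Loxl3 at 231 and 376 CPM (0.75 ± 0.42, edgeR adjusted p = 0.368) and Plod2 at 102 and 196 CPM (1.63 ± 1.00, edgeR adjusted p = 0.408). Loxl1 was at 78.4 CPM in tumor 1 and 423 CPM in tumor 2, on either side of the vCAF-like values (0.80 ± 0.72, edgeR adjusted p = 0.591), and at -2.09 (edgeR adjusted p = 0.00783) when the listed genes were kept in the clustering. Col1a1 was at 583 and 1117 CPM (-1.46 ± 0.37, edgeR adjusted p = 0.0618) and Col3a1 at 1339 and 2887 CPM (-1.57 ± 0.39, edgeR adjusted p = 0.0559). Col1a1 passed in 6 of 11 other settings and Col3a1 in 5, with adjusted p from 0.00096 to 0.365 and from 0.00158 to 0.329. With the listed genes kept in the clustering they were at -7.45 and -6.05, and without the dCAF-like library of tumor 2 at -2.02 and -2.24 (edgeR adjusted p = 0.0108 and 0.0046). Epithelial markers were read more in dCAF-like wells, as given above. By the test 0 of the 8 was called, with a median log2 fold change of 2.65 and 7 above 0. Without the wells that held an Epcam read, Loxl2 and Pcolce were called and Serpinh1 was not, and the part of epithelial cells in these values was not tested otherwise.

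Within single cells the members followed Col1a1 to very different extents. Spearman's rho over all wells, which share depth and plate and include the class differences, was 0.71 and 0.70 for Loxl1 in the 2 tumors, the 8th of 7897 genes by the mean of both. Lox followed with 0.59 and 0.54 (34th), Serpinh1 with 0.48 and 0.53 (70th), Loxl3 with 0.53 and 0.44 (99th), Pcolce with 0.40 and 0.51 (126th) and Bmp1 with 0.39 and 0.46 (158th). Plod2 (0.40 and 0.22), Loxl2 (0.22 and 0.26), Loxl4 (0.21 and 0.14) and P4ha1 (0.12 and 0.26) came lower, and the median of all genes was 0.08. Col1a1 itself had 0.73 and 0.69 with Col3a1. Values against Col3a1 were lower for every member in the mean of both tumors, from 0.56 and 0.48 for Loxl1 to 0.08 and 0.07 for P4ha1.

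Within a class the order changed. Among vCAF-like wells Loxl1 kept 0.51 and 0.54 with Col1a1, the 7th of 7897 genes, followed by Bmp1 (0.33 and 0.43, 28th), Serpinh1 (0.32 and 0.42, 30th) and Loxl3 (0.36 and 0.37, 33rd). Lox had 0.24 and 0.23 there. Graph clustering kept 217 and 180 of these wells as vCAF-like and put 43 and 52 in no named class, and this division was examined after the data were seen. In the wells kept, Loxl1 had a level of 1.43 and 1.69 and a rho of 0.37 and 0.42 with Col1a1, so the relation was weaker there. The unnamed wells fell into 2 unlike clusters. In the 30 and 37 wells of the first, whose leading genes include Serpinf1, Col8a1 and Loxl1 itself, Loxl1 stood at 6.68 and 5.77 and its rho was 0.30 and 0.25. The 13 and 15 wells of the second, led by Lcn2 and including the keratin genes Krt18 and Krt8 among the leading genes, held Loxl1 at 2.44 and 0.85 and had a median of only 37034 and 28394 reads. A read of the epithelial markers was found in 5 and 12 wells of the first and 4 and 8 of the second. Among mCAF-like wells, in all of which Loxl1 was read, its rho with Col1a1 was -0.10 and 0.13, and the chaperone Serpinh1 led the members in the mean of both tumors with 0.43 and 0.37 (17th of 7891), before Pcolce (0.23 and 0.49, the higher of the pair in tumor 2), Lox (0.32 and 0.28) and Bmp1 (0.25 and 0.31). Loxl3 was positive with Col1a1 (0.25 and 0.19) and negative with Col3a1 (-0.16 and -0.17) in mCAF-like wells. Depth moved with these values. Given the reads and genes detected per well, the partial rho in vCAF-like wells was 0.47 and 0.48 for Loxl1 but 0.14 and 0.22 for Serpinh1, whereas in mCAF-like wells Serpinh1 kept 0.42 and 0.37.

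**Figure D3:**
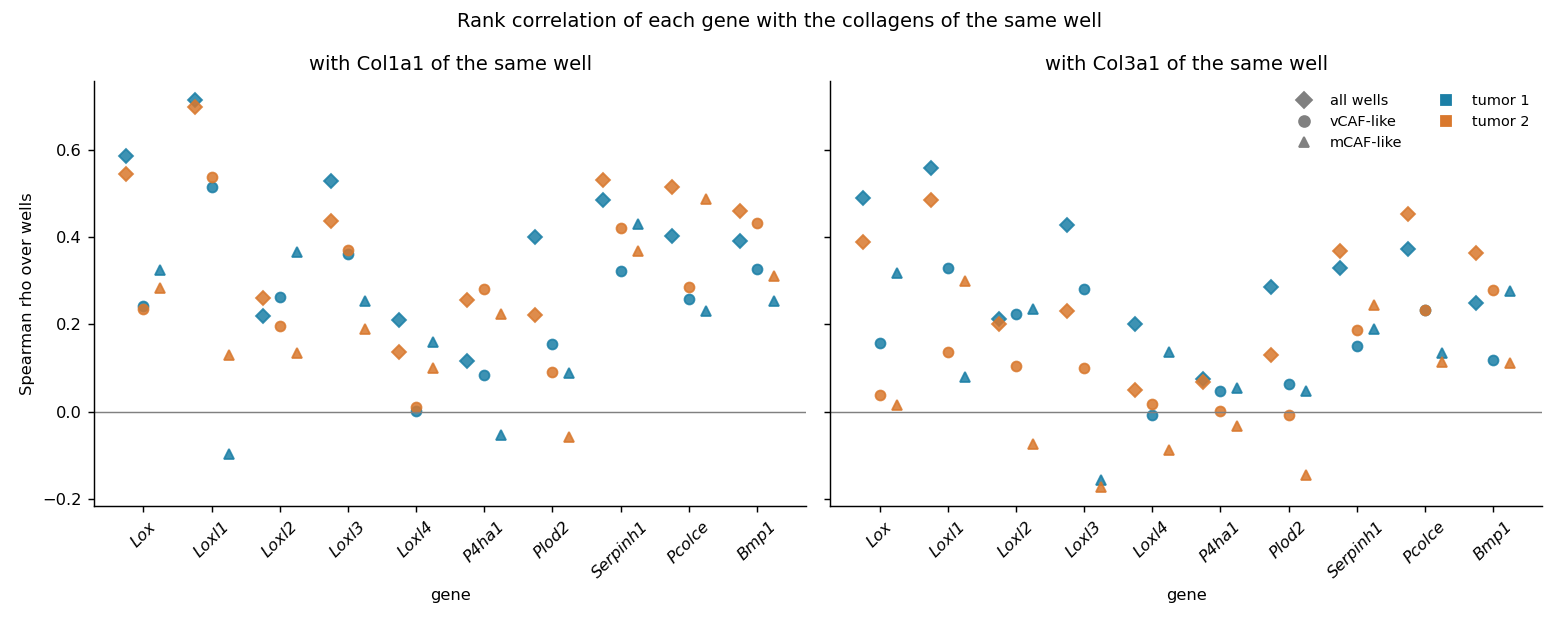
Spearman's rho between each member and Col1a1 or Col3a1 of the same cell, over all wells and within vCAF-like and mCAF-like wells, with 1 point per tumor. Loxl1 leads over all wells (0.71 and 0.70) and among vCAF-like wells (0.51 and 0.54), and lies near 0 among mCAF-like wells (-0.10 and 0.13), where Serpinh1 (0.43 and 0.37) is highest with Col1a1 in tumor 1 and Pcolce (0.23 and 0.49) in tumor 2.

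Set against Col1a1 as a ratio of summed RPKM, Lox and Loxl1 went another way between the classes than 7 other members, and Loxl4, with 1 and 27 reads in all vCAF-like wells, was left out. Col1a1 itself rose by a log2 fold change of 2.97 and Col3a1 by 1.94, where the median of all genes was -0.03. A gene that did not change is thus read less per collagen in mCAF-like wells. The share of all genes read less per collagen was not counted. Serpinh1 amounted to 28.9% and 27.5% of Col1a1 in vCAF-like wells and to 5.65% and 5.74% in mCAF-like wells. Pcolce came to 147% and 126% against 24.9% and 25.4%, Bmp1 to 24.7% and 28.8% against 4.88% and 5.10%, and P4ha1 to 10.5% and 12.2% against 1.14% and 1.79%. These genes were thus read less per Col1a1 in mCAF-like wells. Lox and Loxl1 were not, with 3.43% and 6.98% of Col1a1 in vCAF-like against 7.04% and 9.85% in mCAF-like wells for Lox, and 9.77% and 8.84% against 12.4% and 13.4% for Loxl1. For Lox the vCAF-like ratio of tumor 2 came close to the mCAF-like ratio of tumor 1, and the ratios were not tested. Loxl2 and Loxl3 were read less per Col1a1 in mCAF-like wells, Loxl3 at 10.2% and 11.2% against 4.10% and 4.29% and Loxl2 at 4.19% and 6.56% against 0.406% and 0.975%. Plod2 came to 2.20% and 4.27% against 1.08% and 1.51%. Per Col3a1, Lox (1.38% and 3.26% against 6.33% and 8.42%), Loxl1 (3.94% and 4.13% against 11.2% and 11.5%) were again higher in mCAF-like wells of both tumors, and 6 members were lower, such as Serpinh1 (11.6% and 12.8% against 5.08% and 4.90%) and, by less, Loxl3 (4.10% and 5.24% against 3.69% and 3.66%). Plod2 had no common direction per Col3a1, at 0.885% and 1.99% against 0.975% and 1.29%.

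When the vCAF-like wells of each tumor were divided into quartiles of Col1a1, Loxl1 climbed from 0.66 over 1.02 and 2.04 to 4.82 in tumor 1 and from 0.88 over 1.15 and 2.302 to 5.02 in tumor 2. It was read in 21.2% and 25.4% of the lowest and 78.8% and 89.8% of the highest quartile. In the highest quartile 19 of 66 and 23 of 59 wells belonged to the cluster led by Serpinf1, Col8a1 and Loxl1. In the wells that graph clustering kept as vCAF-like, Loxl1 climbed less, from 0.52 over 0.98 and 1.44 to 3.41 in tumor 1 and from 0.79 over 0.99 and 1.87 to 3.84 in tumor 2. Lox did not climb evenly, with 0.91, 0.37, 0.61 and 2.15 in tumor 1 and 1.05, 0.32, 1.21 and 2.44 in tumor 2, and stood out in the highest quartile only, where it was at 1.46 and 1.54 in the wells kept by graph clustering. Bmp1 went from 4.12 and 3.65 to 6.45 and 6.80 and Serpinh1 from 5.92 and 5.31 to 7.07 and 6.88 between the lowest and highest quartiles. Plod2 had no steady course, with 0.70, 1.41, 0.67 and 1.86 in tumor 1 and 1.73, 1.55, 0.87 and 2.37 in tumor 2. Among mCAF-like wells Loxl1 had no such climb, at 8.51, 8.73, 8.35 and 8.48 in tumor 1 and 7.93, 8.53, 8.72 and 8.27 in tumor 2, and Lox was lowest in the lowest quartile, at 6.31 and 6.16 in the 2 tumors. Median depth went from 139306 to 241759 reads from the lowest to the highest vCAF-like quartile of tumor 1 and the share of spike-in reads from 16.9% to 11.5%, and their part in these values was not tested here beyond the partial rho.

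**Figure D4:**
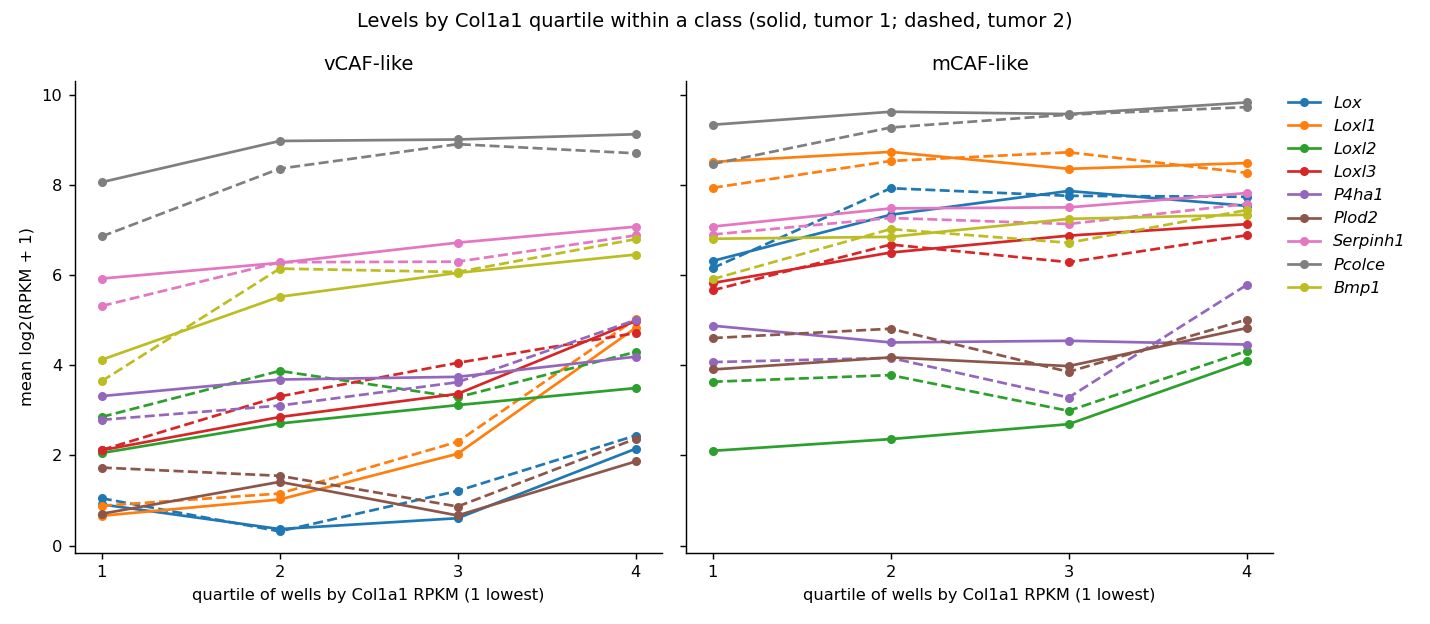
Mean log2(RPKM + 1) of 9 members in quartiles of wells by Col1a1 RPKM, among vCAF-like and mCAF-like wells; solid lines are tumor 1 and dashed lines tumor 2. In vCAF-like wells Loxl1 goes from 0.66 and 0.88 in the lowest to 4.82 and 5.02 in the highest quartile, and Lox is raised in the highest quartile only, at 2.15 and 2.44.

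The vCAF-like wells with a Lox read, 82 in tumor 1 and 73 in tumor 2, were set beside the 180 and 162 without one. Wells with Lox had more Loxl1 (3.72 and 3.80 against 1.42 and 1.68) and more Col1a1 (8.15 and 8.07 against 7.24 and 7.29). Their mean level of 10 mCAF-like markers was 1.61 and 1.498 against 0.83 and 0.92, and of 10 vCAF-like markers 6.88 and 6.99 against 7.46 and 7.56. In mCAF-like wells with a Lox read the mCAF-like markers stood at 8.26 and 8.0 and the vCAF-like markers at 1.34 and 1.40. Serpinh1 (6.58 and 6.38 against 6.46 and 6.11) and Pcolce (8.81 and 8.38 against 8.78 and 8.12) were close, and Bmp1 was lower with Lox (5.28 and 5.49 against 5.65 and 5.74). Median depth was 207797 and 209226 reads with Lox and 186766 and 190344 without. These are descriptions of wells chosen by their own Lox read, with no test.

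The dCAF-like wells, as clustered without the listed genes, differed among themselves in collagen. A limit of 100 RPKM of Col1a1, chosen after the values were seen, put 1 of 10 wells in tumor 1 and 9 of 30 in tumor 2 on the high side. The 9 high wells of tumor 2 ran from 108 to 2161 RPKM of Col1a1, and all 9 held Loxl1 (median 485 RPKM) and Pcolce (median 391 RPKM). The single high well of tumor 1 had 1601 RPKM of Col1a1, 209 RPKM of Loxl1 and 848 RPKM of Pcolce. In the 9 and 21 other wells Col1a1 was at most 8.12 and 42.1 RPKM, and the medians of Loxl1 (1.43 and 0 RPKM) and Pcolce (2.12 and 0 RPKM) were near 0. Of the 21, 3 held 334, 455 and 953 RPKM of Col3a1, so a low Col1a1 did not always mean little collagen. The wells of the low side still carried Serpinh1 (median 58.5 and 45.6 RPKM), P4ha1 (12.7 and 19.6 RPKM) and Plod2 (21.3 and 57.1 RPKM), and in tumor 2 Loxl3 (59.7 RPKM). Loxl2 was read in 1 well of each side in tumor 2 and at no more than 8.53 RPKM. Over all dCAF-like wells Spearman's rho with Col1a1 was 0.67 and 0.76 for Pcolce, 0.29 and 0.59 for Loxl1 and -0.26 and -0.32 for Plod2. The difference between the tumors in summed Loxl1 stood beside a different share of wells over the limit, 1 of 10 against 9 of 30, and the part of that share in it was not tested. The class of these wells depended on the clustering. With the listed genes kept, which include both collagens, 0 of the 10 wells over the limit were dCAF-like (9 were mCAF-like and 1 was vCAF-like), against 29 of the 30 others, whereas graph clustering without them called all 40 dCAF-like.

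**Figure D5:**
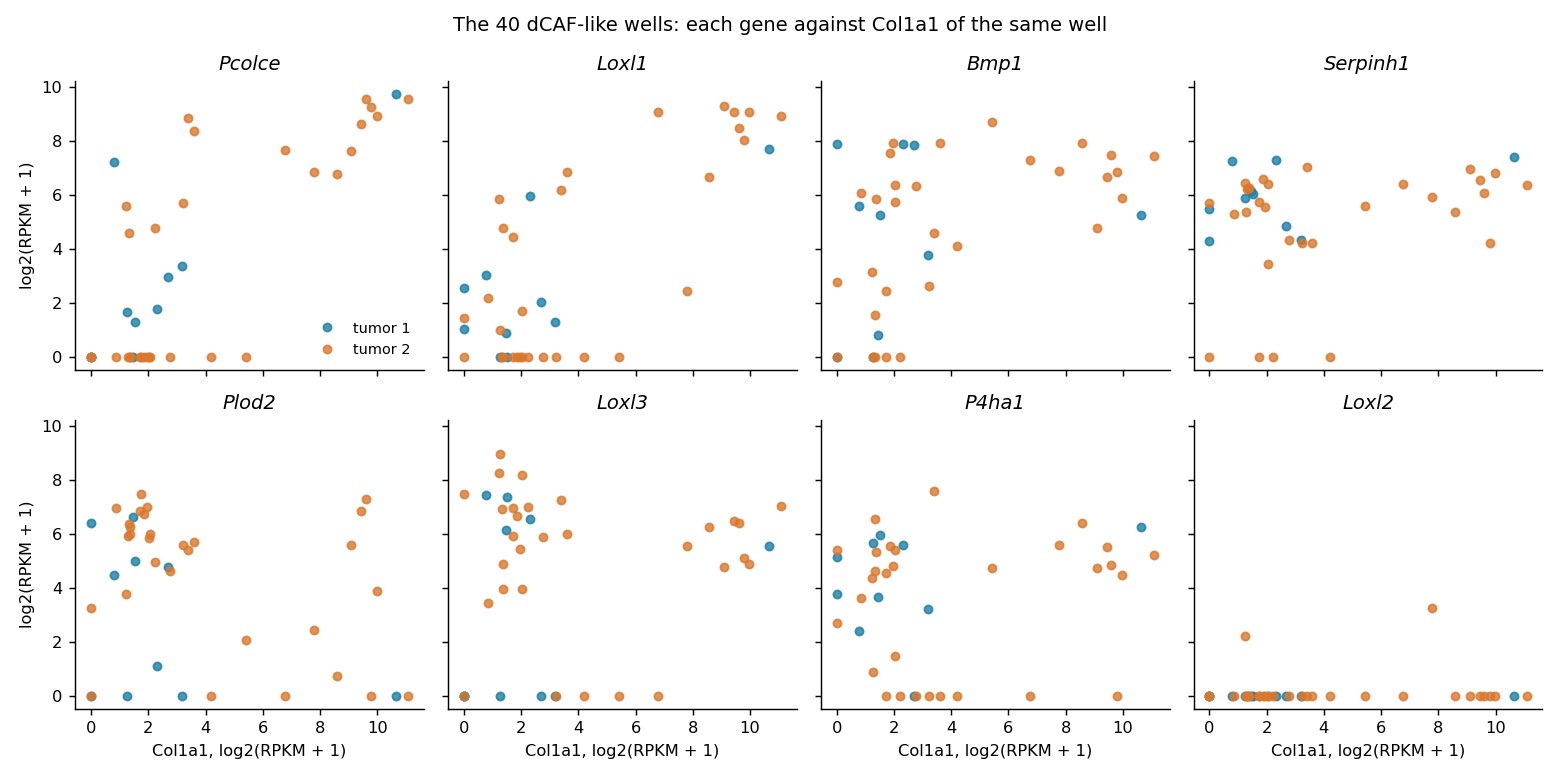
Each of 8 members against Col1a1 of the same well in the 40 dCAF-like wells, both as log2(RPKM + 1), colored by tumor. Pcolce and Loxl1 are read in every well at the right, with over 100 RPKM of Col1a1 (1 in tumor 1 and 9 in tumor 2), whereas Serpinh1 and Plod2 are also read in most wells at the left, and Loxl2 is read in 2 wells.

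For each member the genes with the most similar pattern over all wells were taken by the mean rho of both tumors, among genes read in at least 20% of wells. Lox was nearest to Loxl1 (0.67 and 0.62), then Lsp1 and Mmp23. Loxl1, Loxl3 and Bmp1 were each nearest to Col1a1, Pcolce to the proteoglycan gene Bgn (0.50 and 0.55) and to the type VI collagen genes Col6a2 and Col6a1, and Serpinh1 to Col5a1 (0.55 and 0.56) and then to the secretory pathway genes Calu and Kdelr2. Plod2 was nearest to Fbln2 (0.52 and 0.46) and Pdpn, a fibroblast surface glycoprotein. P4ha1 had no close neighbour. Its nearest was P4hb (0.17 and 0.37, with a mean of 0.27), the other subunit of the same enzyme, followed by the glycolytic enzyme genes Pkm and Aldoa. Loxl2 had Col6a3 (0.26 and 0.41), Col5a1 and Igfbp7, and Loxl4 had Gpr133, Gas7 and Hs6st1 at 0.30 or below.

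Other genes of the pathway were taken from lists of collagens, enzymes and partners, and were compared first between mCAF-like and vCAF-like libraries. Among 7 tested fibrillar collagen genes 2 rose and 0 fell, with a median log2 fold change of 1.60 over the list. Col1a2, the partner chain of Col1a1, rose by 2.61 ± 0.22 (edgeR adjusted p = 0.00305) and Col11a1 by 5.63 ± 1.01 (edgeR adjusted p = 0.0264, and 0.0595 with tumor as a block). Among 8 tested substrates and partners of the lysyl oxidases 4 rose and 0 fell, with a median of 1.71. These were Eln, elastin itself, from 32.0 and 20.5 to 890 and 959 CPM (5.14 ± 0.70, edgeR adjusted p = 0.0111), Fbln5 (3.97 ± 0.28) and Efemp2 (1.37 ± 0.26), fibulins that bring oxidases to elastin, and Postn (1.64 ± 0.28), a matricellular protein, with edgeR adjusted p from 0.00219 to 0.0333. Of 8 prolyl hydroxylation genes, whose median was 0.96, P4ha3 rose (1.62 ± 0.33, edgeR adjusted p = 0.0422, and 0.0573 with the block) and Leprel1, a prolyl 3-hydroxylase of basement membrane collagen, fell from 75.9 and 47.7 to 0.168 and 0.360 CPM (edgeR adjusted p = 0.00771).

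Of 9 chaperone and export genes (median 0.65) the prolyl isomerases Fkbp14 (1.56 ± 0.23, edgeR adjusted p = 0.0145) and Fkbp7 (1.37 ± 0.22, edgeR adjusted p = 0.0184) rose and 0 fell. Of 3 propeptide removal genes (median 1.69) the N-propeptidase Adamts2 rose (1.15 ± 0.23, edgeR adjusted p = 0.0360, and 0.0511 with the block). None of 4 lysyl hydroxylation and glycosylation genes (median 0.17), 13 targets of the hypoxia factor HIF (median -0.05) and 5 copper supply genes (median 0.01) was called. Among 9 TGF-beta targets (median 0.81) Acta2, smooth muscle actin, fell by 1.67 ± 0.28 (edgeR adjusted p = 0.0218) and 0 rose. In cCAF-like libraries 0 genes of these lists were called.

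In dCAF-like libraries Eln and Fbln5 rose while 3 fibrillar collagen genes fell. Eln was at 1076 and 2156 CPM (5.94 ± 0.73, edgeR adjusted p = 0.00561) and Fbln5 at 1527 and 1710 CPM against 35.9 and 37.6 CPM (5.46 ± 0.30, edgeR adjusted p = 0.000973), whereas the partners Fn1 (-2.06 ± 0.45) and Tnxb (-6.21 ± 0.89) fell, so that 2 of 8 rose and 2 fell (edgeR adjusted p = 0.0401 for Fn1 and 0.00962 for Tnxb). The 10 mCAF-like markers had a median of 2.27 in this comparison with 9 above 0, and by the test 1 of the 10 rose and 1 fell. With the listed genes kept in the clustering, where 29 of the 40 wells remained dCAF-like, Eln was at 5.497 ± 0.36 and Fbln5 at 5.70 ± 0.29 (edgeR adjusted p = 0.00149 and 0.000908). Both are listed genes and could take part in that clustering, so it is not an independent check. Without the vCAF-like library of tumor 2 Eln was at 5.64 and its call was lost, while Fbln5 was at 5.47. Without the vCAF-like library of tumor 1 they were at 6.30 and 5.43. Of 7 fibrillar collagens Col11a1 rose (5.84 ± 1.02), and Col1a2 (-2.11 ± 0.22), Col5a1 (-2.54 ± 0.47) and Col5a3 (-5.01 ± 1.09) fell, with edgeR adjusted p from 0.00321 to 0.0391. Among the enzymes P4ha3 (-6.74 ± 0.47), Plod3 (-1.30 ± 0.28) and Adamts2 (-2.58 ± 0.24) fell, while Fkbp14 rose (1.13 ± 0.23), with edgeR adjusted p from 0.00133 to 0.0386. The TGF-beta targets Acta2 (-2.24 ± 0.29) and Tagln (-2.20 ± 0.32) fell (edgeR adjusted p = 0.00625 and 0.0101), and none of 13 HIF targets or 5 copper supply genes was called. In both the mCAF-like and the dCAF-like comparison Eln and Fbln5 were thus higher than in vCAF-like libraries, which both comparisons share.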

How the data were processed

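Single sorted cells of 2 tumors were sequenced by Smart-seq2. Per the study's methods, the authors mapped single-end reads with STAR (mm10), took counts over RefSeq genes, and deposited raw read counts per gene and well beside RPKM values, whose totals include the 92 ERCC spike-ins. Depth ran from 10281 to 1190516 endogenous reads in the 727 wells kept at the minimum of 10000, and 41 wells were left out. No 2 wells held identical counts. The members and lists were chosen with earlier results of these data known.

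From there, wells were clustered on log2(RPKM + 1) of 557 variable genes without the listed genes (Rtsne 0.17, then DBSCAN in scikit-learn 1.9.0), and named by marker lists. Doublets had been gated out by the authors, and no doublet caller was run. Counts were summed per tumor and class into 8 libraries of 2539699 to 51977997 reads and tested with edgeR 4.0.16 (quasi-likelihood, TMM) in R 4.3.3 for genes averaging an RPKM of 1 or more, at an adjusted p of 0.05. The test was tried first on simulated data, whose dispersion was set lower than the common dispersion of 0.279 in these libraries. The trial thus does not show how the test performs at their noise. DESeq2 1.42.0, other scalings, filters, clusterings, left-out libraries and a tumor block were alternatives. Libraries of the same number come from the same tumor, and the deviations of all 6 class pairs correlated between 0.0202 and 0.105. Genes named were the members, Col1a1 and Col3a1, the 3 genes most like each member, and up to 4 genes per list with the largest change among those called. Shares have exact binomial 95% intervals. Python 3.11.15, pandas 2.3.3, SciPy 1.17.1 and matplotlib 3.10.9 were used. RefSeq sequences were read from tables of GRCm38.p6.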

Additional observations from a re-analysis of the deposited data

Results flagged for a closer look

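Log2 ratios within the 2 tumors had opposite signs for 4 results among the members and both collagens, and the difference between the tumors was not tested in any of them. Loxl1 in dCAF-like against vCAF-like libraries was at -1.03 in tumor 1 and 1.71 in tumor 2, a difference of 2.74. Bmp1 in cCAF-like against vCAF-like libraries was at 0.26 and -0.37, a difference of -0.63, Loxl2 in the same comparison at -0.07 and 0.16, a difference of 0.24, and Col1a1 there at 0.09 and -0.21, a difference of -0.30.

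In the 41 wells under 10000 reads, which entered no comparison, 7 members had more than 3 reads in all, led by Lox with 97 reads in 6 wells and Pcolce with 19 reads in 6 wells. In the 6 wells of no named class 1 member did, Bmp1 with 4 reads in 2 wells.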

How the results depend on the processing

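The number of genes called moved most. In the mCAF-like comparison 584 became 0 at an adjusted p of 0.001, 1392 with DESeq2, 1231 with ERCC totals as library size and 106 to 127 with a library left out. In the cCAF-like comparison 51 became 0, 872, 293 and 0 to 4, and 216 with no filter on low genes. In the dCAF-like comparison 969 became 11 at 0.001, 2050 with DESeq2 and 269 to 2187 with a library left out, the last without the dCAF-like library of tumor 2. With tumor as a replicate block, which pairs the libraries of a tumor, the counts were 449, 13 and 791. Among the members and both collagens the block changed the calls of Lox and Col3a1 in the mCAF-like comparison and no other. ERCC scaling moved the median of all genes to 0.84, 0.68 and 0.62, and the members' medians to 1.57, 0.30 and -0.0295. Scaling each well to the same total gave 0.87 in the mCAF-like comparison, and keeping the listed genes in the clustering gave -1.30 in the dCAF-like one. Some values changed sign. Loxl1 in the dCAF-like comparison was at -2.09 with the listed genes kept and -0.90 to 1.53 with a library left out. In the mCAF-like comparison Loxl2 was at 0.71 with ERCC totals, at 0.19 with wells scaled and at -0.73 to 0.30 with a library left out, and P4ha1 at -0.0822 to 0.35. In the cCAF-like comparison ERCC totals gave 0.30 for Loxl3, 0.11 for P4ha1, 0.0098 for Plod2, 0.63 for Pcolce, 0.71 for Bmp1, 0.70 for Col1a1 and 0.52 for Col3a1. There, scaled wells gave 0.0913 for Bmp1 and 0.17 for Col1a1, the study's quality rule 0.0121 for Col1a1, leaving out the 16 deepest wells 0.13 for Bmp1 and 0.0548 for Col1a1, and graph clustering 0.45 for Loxl1, 0.0655 for Loxl3, 0.0616 for Bmp1 and 0.46 for Col1a1. Leaving out a library gave -0.45 to 0.45 for Loxl2, -1.19 to 0.0488 for Loxl3, -3.70 to 0.17 for Plod2, -0.32 to 0.087 for Pcolce, -0.38 to 0.24 for Bmp1, -0.36 to 0.19 for Col1a1 and -0.43 to 0.000117 for Col3a1. The causes were not tested. The median share of wells with a read over members, classes and tumors went from 74.5% to 71.2% with thinning, the median level from 3.62 to 2.53 with a pseudocount of 0.1, and the median rho with the collagens from 0.34 to 0.40 as Pearson's r, 0.27 thinned, 0.22 as partial rho and 0.26 over wells with both genes read. The thinned share leaves out the wells with fewer reads than the thinning depth. No cCAF-like cluster formed with the listed genes kept, so the cCAF-like comparison has no value there. The precision is limited by 2 tumors and, in tumor 1, by 10 dCAF-like wells.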
